A study of Mus musculus with 9 samples.

Results

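The positive limb of the circadian clock was represented by 7 genes, Arntl, Clock, Npas2, Cry1, Cry2, Nfil3 and Rora, out of 17305 genes that the probes of the array could be assigned to. Members were found by matching each probe's transcript accession to a gene symbol, which gave 13 probes. Of these, 12 passed the background filter, and each of the 7 genes kept at least 1 probe. The brightest of them represented its gene. The label is a loose one, because cryptochromes and NFIL3 act as repressors, and the genes are therefore taken below by what each is known to do.

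Expression was measured in total RNA from colonic mucosa, labelled as normal, of ICR mice, an outbred stock, with 3 arrays in each of 3 groups. One group received a high calcium diet (3% calcium) and carried tumors (labelled hCA-Tumor, here "with tumors"). A second received the same diet and had no tumors (hCA-Notumor, "without tumors"). The DMH group received a diet with 1.24% calcium, and its tumor status is given only as control. All 3 groups were injected subcutaneously with the colon carcinogen 1,2-dimethylhydrazine (DMH), 20 mg/kg once a week over 20 weeks, so that no group was free of carcinogen. The labels give no hour of tissue collection, and in a clock gene any difference in the hour between groups cannot be told apart from a difference of diet or tumors. They also do not say whether the arrays of a group stem from separate mice, so the spread between arrays may be technical.

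In the mouse clock, ARNTL (also called BMAL1) pairs with CLOCK or with its paralog NPAS2, and the pair binds E-box sequences and switches on the Period and Cryptochrome genes, whose proteins return to repress the pair. A second loop acts on the Arntl gene itself through ROR elements, where RORA and its relatives activate and the REV-ERB proteins (encoded by Nr1d1 and Nr1d2) repress. Nfil3 is likewise under REV-ERB repression, and NFIL3 competes at D-box sequences with the activators DBP, TEF and HLF. In a tissue with a running clock Arntl and Npas2 peak at about the opposite phase to the Period and Dbp genes. Intestinal epithelium is known to hold such a clock, which responds to feeding time.

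The stretches around the annotated starts of 5 members are shown because they hold, or lack, the elements through which these loops are known to act. The sequences are RefSeq promoter windows of 300 bases on build GRCm38.p6, written 5′ to 3′ on the gene's strand. Capitals mark matches on either strand to an E-box (CACGTG), a noncanonical E-box (CACGTT), a ROR element (TAGGTNA) or a D-box (TTATGNAA). No 2 of the marked matches overlap. The N in the ROR element was chosen after the sequences had been read. The windows are Arntl, the second of 2 annotated starts, at chr7:113207261-113207560 on the plus strand, Nfil3 at chr13:52980990-52981289 on the minus strand, Npas2 at chr1:39194022-39194321 on the plus strand, Cry1 at chr10:85185005-85185304 on the minus strand and Cry2 at chr2:92434020-92434319 on the minus strand.
Arntl: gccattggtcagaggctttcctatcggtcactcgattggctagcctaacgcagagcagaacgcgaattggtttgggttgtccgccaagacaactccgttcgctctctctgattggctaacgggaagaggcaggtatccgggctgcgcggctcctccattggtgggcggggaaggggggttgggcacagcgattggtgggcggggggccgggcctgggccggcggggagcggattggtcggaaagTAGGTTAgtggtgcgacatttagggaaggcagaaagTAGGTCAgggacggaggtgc
Nfil3: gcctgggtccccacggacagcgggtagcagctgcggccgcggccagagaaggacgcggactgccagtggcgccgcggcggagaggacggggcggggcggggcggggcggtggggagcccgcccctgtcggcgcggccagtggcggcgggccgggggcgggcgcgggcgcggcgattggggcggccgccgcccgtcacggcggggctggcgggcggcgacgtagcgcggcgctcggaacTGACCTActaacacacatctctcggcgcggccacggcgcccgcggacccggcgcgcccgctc
Npas2: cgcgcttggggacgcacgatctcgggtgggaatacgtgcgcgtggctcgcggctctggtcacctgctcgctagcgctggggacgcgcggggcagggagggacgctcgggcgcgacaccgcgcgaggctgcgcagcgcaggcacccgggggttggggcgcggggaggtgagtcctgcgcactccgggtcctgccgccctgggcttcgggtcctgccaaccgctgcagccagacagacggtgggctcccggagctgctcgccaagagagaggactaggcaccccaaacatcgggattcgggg
Cry1: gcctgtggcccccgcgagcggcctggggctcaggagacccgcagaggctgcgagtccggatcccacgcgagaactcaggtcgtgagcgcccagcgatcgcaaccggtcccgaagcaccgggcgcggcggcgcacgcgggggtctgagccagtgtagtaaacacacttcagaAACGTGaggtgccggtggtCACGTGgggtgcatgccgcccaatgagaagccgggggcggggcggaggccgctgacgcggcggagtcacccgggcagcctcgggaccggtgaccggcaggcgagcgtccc
Cry2: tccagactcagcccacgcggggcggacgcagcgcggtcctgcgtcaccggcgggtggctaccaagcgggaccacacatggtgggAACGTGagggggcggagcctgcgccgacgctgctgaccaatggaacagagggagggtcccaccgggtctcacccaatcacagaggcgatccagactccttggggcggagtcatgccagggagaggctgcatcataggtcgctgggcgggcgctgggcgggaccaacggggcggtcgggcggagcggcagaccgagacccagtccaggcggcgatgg

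The Arntl window held ROR element letters at 2 places, TAGGTTA from position -6 and TAGGTCA from position 31, counted from the gene start as 1. The Nfil3 window held the same element on the opposite strand, read here as TGACCTA from position -12. Cry1 carried an E-box at -60 and a noncanonical one, read here as AACGTG, at -79, and Cry2 carried AACGTG at -166. The windows of Npas2, Rora and Clock (3 annotated starts) held none of the 4 motifs. Of 32851 RefSeq promoter windows of the same length, 8.29% held the ROR element, 7.15% the E-box, 4.68% the noncanonical E-box and 3.38% the D-box. A match describes letters in the window and is not evidence of binding.

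Signals are given as log2 of the processed intensity minus the array's own 75th percentile, so that 0 is the signal at that percentile, and values serve to compare arrays for 1 probe and not one probe with another. Differences were fitted with limma across 21094 features, with Benjamini-Hochberg adjustment over all of them and a threshold of 0.05. Of 41174 probes, 61.1 to 73.7% on any array had signals well above background, and none was saturated. The arrays came from 3 slides. Slide 1 carried the group without tumors and DMH replicate 1, slide 2 carried replicates 1 and 2 with tumors beside DMH replicates 2 and 3, and slide 3 carried the remaining array with tumors. Across tested features, Pearson's r was 0.994 to 0.997 for 5 pairs of arrays sharing group and slide, 0.967 to 0.984 for 4 pairs sharing only the group, 0.979 to 0.983 for 7 pairs sharing only the slide and 0.959 to 0.975 for 20 pairs sharing neither. Replicate 3 with tumors, alone on slide 3, stood apart, at 0.967 with its own group and 0.975 with DMH replicate 1. Without it, the differences of tissue with tumors from DMH were -1.44 in Arntl, -1.31 in Npas2, -0.98 in Nfil3 and 1.02 in Cry2, all past the threshold. Values within a slide and with the slide as a block stand beside the members' results. Within slide 1 a single DMH array is assumed to vary like the arrays without tumors, so those values carry no check from a second DMH array. With the slide as a block, estimates against DMH equal those within slides by construction, so neither is a check on the other. Block values for tissue without tumors likewise rest on DMH replicate 1, and replicate 3 with tumors adds nothing to any block estimate. All 10 listed markers of epithelium were measured, and their summed signal was 1112 to 1134 with tumors, 1179 to 1283 without tumors and 994 to 1139 in DMH, in multiples of the 75th percentile. Singly, 1 was higher and 2 lower than in DMH with tumors, beside 21.0 and 15.9% of all features. Without tumors 3 were higher and 1 lower, beside 18.4 and 17.3%. Cdx2, an intestinal transcription factor, was lower by 1.57 log2 units with tumors and by 0.75 without tumors (adjusted p = 4.5e-05 and 0.000447), the order of groups seen in Arntl. The keratins Krt8 and Krt19 had another order, with means of 8.57 and 7.77 with tumors, 8.73 and 8.02 without tumors and 8.44 and 7.63 in DMH. Cdx1 differed by -0.61 with tumors and 0.74 without tumors (adjusted p = 0.000673 and 0.000252), and Cdh1 by 0.66 with tumors (adjusted p = 0.00698).

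In mucosa with tumors, 4 of the 7 members passed the threshold against DMH. Arntl, Npas2 and Nfil3 were lower and Cry2 was higher. Of all features, 37.0% passed in that comparison. In mucosa without tumors all 7 passed against DMH, with Cry1, Cry2 and Rora higher and Arntl, Clock, Npas2 and Nfil3 lower, against 35.7% of all features. When the high calcium groups were averaged and set against DMH, 5 passed (2 higher, 3 lower), against 31.6% of all features (17.8% higher, 13.8% lower). Set directly against mucosa without tumors, mucosa with tumors differed in 5 members, of which Clock was higher and Arntl, Npas2, Cry1 and Cry2 were lower, against 47.6% of all features (27.0% higher, 20.6% lower). The members' median differences against DMH were 0.07 with tumors and -0.29 without tumors, beside 0.08 and 0.07 over all features, since members moved both ways. The comparisons against DMH share the same 3 DMH arrays, so their values are given side by side and are not independent.

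**Figure D1:**
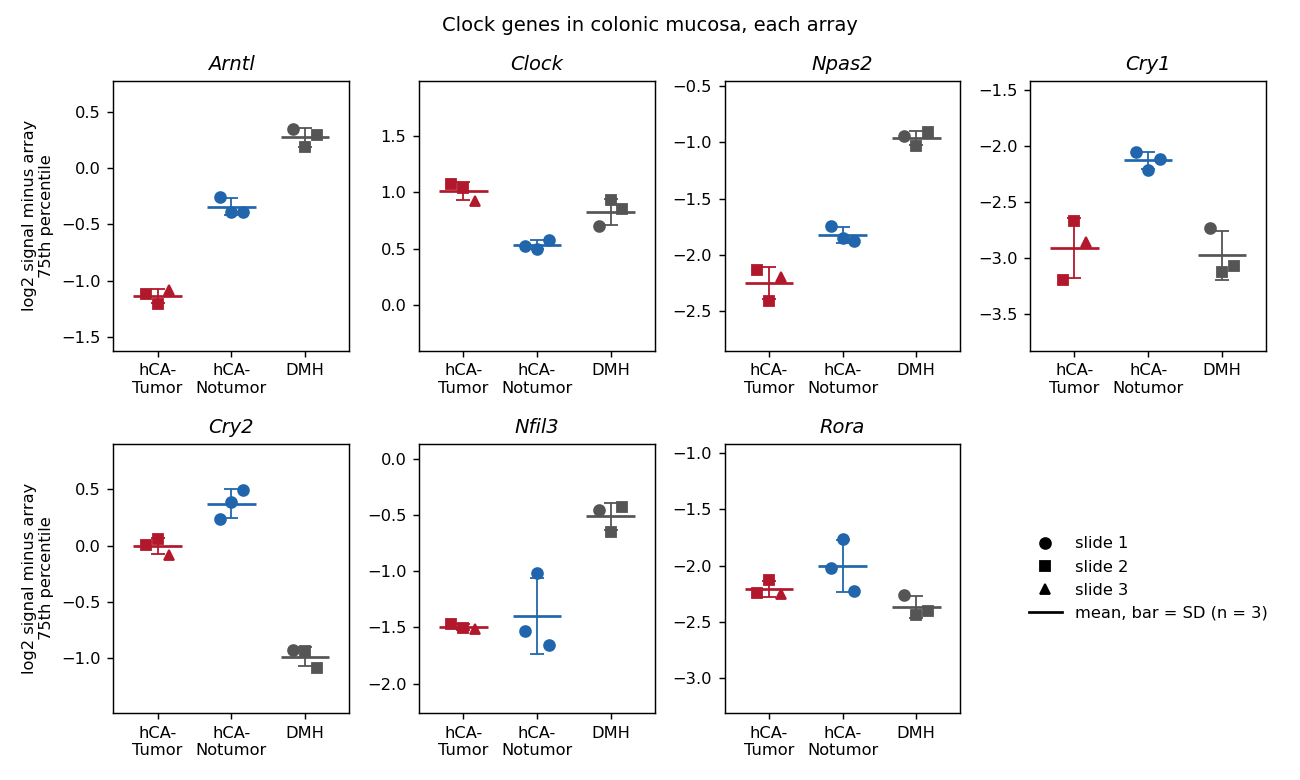
Log2 signal minus the array's 75th percentile of the 7 genes, 1 panel per gene, all with the same vertical span. Points are single arrays, shaped by slide, lines are group means and bars the SD (n = 3). The means of Arntl and Npas2 rise in the order with tumors, without tumors, DMH, and that of Cry2 is lowest in DMH.

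Arntl encodes the partner that every activating complex of the clock requires. Its log2 signal was -1.12, -1.21 and -1.08 with tumors, -0.25, -0.39 and -0.39 without tumors and 0.35, 0.18 and 0.30 in DMH. All 6 high calcium arrays lay below all 3 DMH arrays, the arrays with tumors lay lowest, and no groups overlapped. Arntl was 2.66-fold lower with tumors than in DMH (log2 difference -1.41 ± 0.07 SE, n = 3 per group, limma adjusted p = 3.3e-05). It was 1.54-fold lower without tumors than in DMH (-0.62 ± 0.07, adjusted p = 0.000452). Mucosa with tumors was itself 1.73-fold below mucosa without tumors (-0.79 ± 0.07, adjusted p = 0.00012). With the slide as a block these differences were -1.40, -0.69 and -0.71, all still past the threshold. The values against DMH equal the within-slide differences by construction. Both -0.69 and -0.71 depend on DMH replicate 1, the only DMH array on slide 1. Of the 22 alternative settings tried for each group against DMH, all left the call and its direction unchanged.

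Npas2, the paralog that can stand in for Clock as the partner of ARNTL, had the same order of groups. Its signal was -2.14, -2.41 and -2.20 with tumors, -1.74, -1.85 and -1.88 without tumors and -0.94, -1.03 and -0.91 in DMH. No groups overlapped, and the gap between DMH and either high calcium group was wider than that between the high calcium groups. Npas2 was 2.45-fold lower with tumors than in DMH (-1.29 ± 0.08, adjusted p = 0.000103) and 1.82-fold lower without tumors than in DMH (-0.86 ± 0.08, adjusted p = 0.000277). Within slides these differences were -1.31 and -0.88. The difference between tissue with and without tumors, -0.43 ± 0.08 (adjusted p = 0.00435), was not past the threshold with the slide as a block (-0.42, adjusted p = 0.102), under normexp background correction (-0.26, adjusted p = 0.0677) or in the whole-series value table (-0.37, adjusted p = 0.114).

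Clock, which encodes the other partner of ARNTL and is known to cycle little in most tissues, differed less from DMH. Its brightest probe read 1.07, 1.04 and 0.93 with tumors, 0.53, 0.50 and 0.58 without tumors and 0.70, 0.93 and 0.85 in DMH. The arrays with tumors lay above those of DMH except that replicate 3 met DMH replicate 2, whereas those without tumors lay below both other groups. With tumors the difference from DMH was 0.18 (95% confidence interval 0.02 to 0.35, adjusted p = 0.0787), which did not pass. Without tumors Clock was 1.23-fold lower than in DMH (-0.29 ± 0.07, adjusted p = 0.016). That call was not past the threshold with the slide as a block and within slide 1 (-0.17 each, adjusted p = 0.103 and 0.2), in the whole-series table (-0.48, adjusted p = 0.08), or without replicate 1 or 2 of the group without tumors or DMH replicate 2 or 3 (adjusted p = 0.0508 to 0.0548). Clock was 1.39-fold higher with than without tumors by the brightest probe (0.48 ± 0.07, adjusted p = 0.00134), and with the slide as a block 0.33 (adjusted p = 0.0326). The mean of its probes was 0.05 (adjusted p = 0.692). It includes the dimmest probe, well above background only without tumors, so it cannot decide that call.

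The 3 Clock probes differed in size and, for the dimmest, in direction. The second probe differed by 0.04 with tumors and by -0.14 without tumors from DMH (adjusted p = 0.775 and 0.288), and by 0.18 between the high calcium groups (adjusted p = 0.159). The third and dimmest probe was well above background on the 3 arrays without tumors and on no other array. It passed the filter only through those arrays, so a higher signal there was favoured in advance and tells nothing about the direction of Clock. Its signal there was at least 2.26-fold higher than in DMH. Between the high calcium groups the third probe was at least 1.41-fold lower with tumors, under the same limit, and did not pass (adjusted p = 0.119). Averaging the 3 probes turned the difference of tissue without tumors from DMH round, to 0.34, through the third probe. The brightest and second probes had the same sign without tumors against DMH and between the high calcium groups, where only the brightest passed.

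The partners of ARNTL did not move alike. The per-array difference Npas2 minus Clock was 1.02 log2 units lower over the 6 high calcium arrays than over the 3 DMH arrays (exact two-sided permutation test over arrays, p = 0.0238, adjusted over 2 pairs of paralogs p = 0.0238). This is the smallest p that 84 orderings can give. Within slide 1 that shift was -0.71 and within slide 2 -1.47. Under normexp background correction it was -0.56 and did not pass (adjusted p = 0.0714).

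RORA activates genes such as Arntl through the ROR element. Its brightest probe read -2.24, -2.13 and -2.26 with tumors, -2.03, -1.77 and -2.23 without tumors and -2.26, -2.44 and -2.41 in DMH. The high calcium arrays lay above those of DMH by little, the highest DMH array reaching the lowest one with tumors to within the second decimal. Rora differed from DMH by 0.16 with tumors (interval -0.11 to 0.43, adjusted p = 0.33) and by 0.36 ± 0.12 without tumors (1.29-fold higher, adjusted p = 0.045). The call without tumors ended in 14 of 22 alternative settings, among them the slide as a block (0.25, adjusted p = 0.32). It also ended without replicate 1 or 2 of either high calcium group or without DMH replicate 2 or 3 (adjusted p = 0.0622 to 0.132). The second Rora probe passed against DMH in both, at 0.29 ± 0.09 with tumors (adjusted p = 0.0396) and 0.40 ± 0.09 without tumors (adjusted p = 0.0118). With tumors the first probe was 0.20 below tissue without tumors (interval -0.47 to 0.07, adjusted p = 0.193). Among 21 alternative settings that difference passed only when replicate 3 of the group without tumors was left out (-0.31, adjusted p = 0.0487), which also brought the averaged high calcium groups past the threshold against DMH (0.32, adjusted p = 0.0323).

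Nfil3 encodes the repressor at D-box sequences. It read -1.47, -1.51 and -1.51 with tumors, -1.53, -1.01 and -1.66 without tumors and -0.45, -0.65 and -0.43 in DMH. All high calcium arrays lay below all DMH arrays, and the high calcium groups overlapped, replicate 2 without tumors standing above the rest. Nfil3 was 1.98-fold lower with tumors than in DMH (-0.98 ± 0.16, adjusted p = 0.00275) and 1.85-fold lower without tumors than in DMH (-0.89 ± 0.16, adjusted p = 0.00452). Within slides both differences were -0.95, with adjusted p = 0.0111 with tumors and 0.0955 without tumors. The comparison within slide 1 set 3 arrays against DMH replicate 1 alone and did not pass. The second Nfil3 probe also fell in both, by 0.57 with tumors (adjusted p = 0.0458) and by 1.21 without tumors (adjusted p = 0.00223).

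Between the high calcium groups the Nfil3 probes disagreed. The brightest differed by -0.09 (interval -0.46 to 0.28, adjusted p = 0.656), while the second was 1.56-fold higher with tumors than without (0.64 ± 0.19, adjusted p = 0.0222). The second probe read -1.56, -1.62 and -1.61 with tumors, -2.43, -1.79 and -2.50 without tumors and -1.22, -1.0 and -0.87 in DMH.

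**Figure D2:**
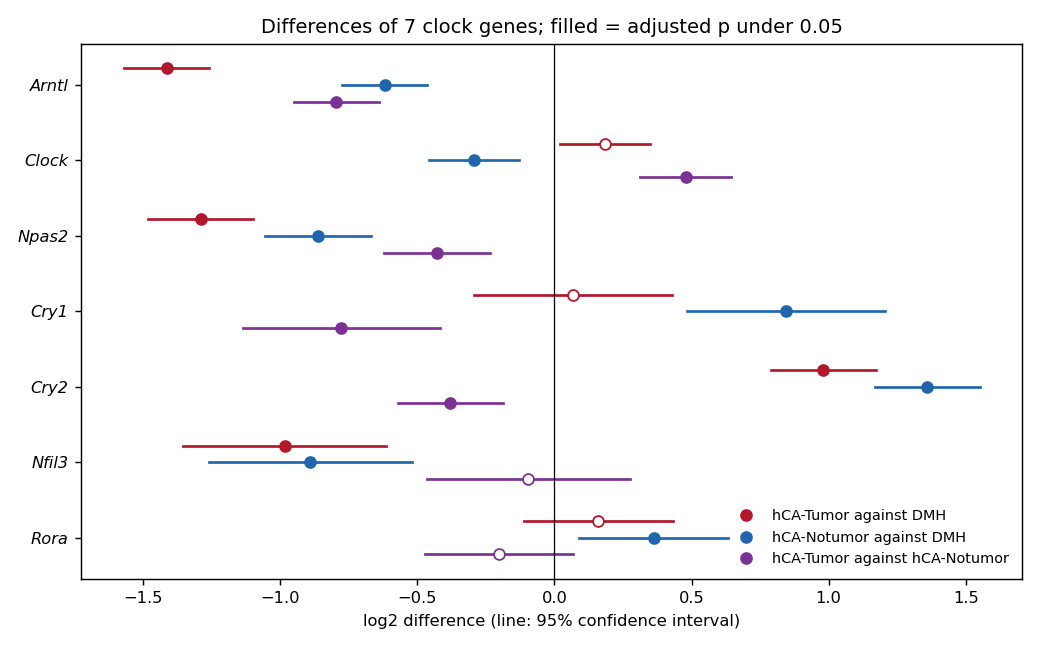
Log2 differences of the 7 genes in 3 comparisons, with 95% confidence intervals from limma (n = 3 arrays per group). Filled points passed at adjusted p under 0.05. Arntl and Npas2 lie left of 0 in all 3, and Cry2 lies right of 0 against DMH and left of 0 between the high calcium groups.

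Cry2 encodes one of the paired cryptochromes, which repress the activating complex. Its brightest probe read 0.01, 0.06 and -0.08 with tumors, 0.24, 0.39 and 0.49 without tumors and -0.93, -0.94 and -1.09 in DMH. No groups overlapped, and the order was the reverse of that in Arntl as far as high calcium against DMH goes, but not between the high calcium groups. Cry2 was 1.97-fold higher with tumors than in DMH (0.98 ± 0.08, adjusted p = 0.000249) and 2.57-fold higher without tumors than in DMH (1.36 ± 0.08, adjusted p = 3.9e-05). Both passed with the slide as a block (adjusted p = 0.00142 and 0.00134), and within slides the differences were 1.05 and 1.3. With tumors Cry2 was 1.3-fold below tissue without tumors (-0.38 ± 0.08, adjusted p = 0.00697), which did not pass with the slide as a block (-0.26, adjusted p = 0.236), in the whole-series table (-0.32, adjusted p = 0.208) or with the mean of probes (-0.49, adjusted p = 0.256). A dim second probe, well above background on 2 arrays with tumors, 3 without tumors and 1 of DMH, differed from DMH by 1.1 with tumors and by 1.69 without tumors, and neither passed (adjusted p = 0.204 and 0.0649).

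Cry1, the other cryptochrome, separated 1 group from the rest. It read -3.20, -2.67 and -2.86 with tumors, -2.06, -2.21 and -2.12 without tumors and -2.73, -3.13 and -3.07 in DMH. The 3 arrays without tumors lay above the other 6, among which tissue with tumors and DMH overlapped. Cry1 differed by 0.07 between tissue with tumors and DMH (interval -0.29 to 0.43, adjusted p = 0.779). It was 1.80-fold higher without tumors than in DMH (0.84 ± 0.15, adjusted p = 0.00505) and 1.71-fold lower with than without tumors (-0.78 ± 0.15, adjusted p = 0.00491). Of the alternative settings only the slide block ended these calls, at 0.60 (adjusted p = 0.0721) and -0.43 (adjusted p = 0.245). Within slide 1 tissue without tumors lay 0.60 above its single DMH array, the same estimate by construction. Averaged, the high calcium groups passed against DMH (0.46 ± 0.13, adjusted p = 0.0361) although arrays overlapped, and 14 of 21 alternative settings ended that call. Leaving out any array without tumors, replicate 2 or 3 with tumors or DMH replicate 2 or 3 was among them (adjusted p = 0.0548 to 0.134). A second Cry1 probe was not well above background on any array.

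The cryptochromes did not move alike either. Cry1 minus Cry2 was 0.71 log2 units lower over the 6 high calcium arrays than over the 3 DMH arrays (exact two-sided permutation test, p = 0.0238, adjusted p = 0.0238, again the smallest possible). The shift was -0.71 within slide 1 and -0.88 within slide 2.

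**Figure D3:**
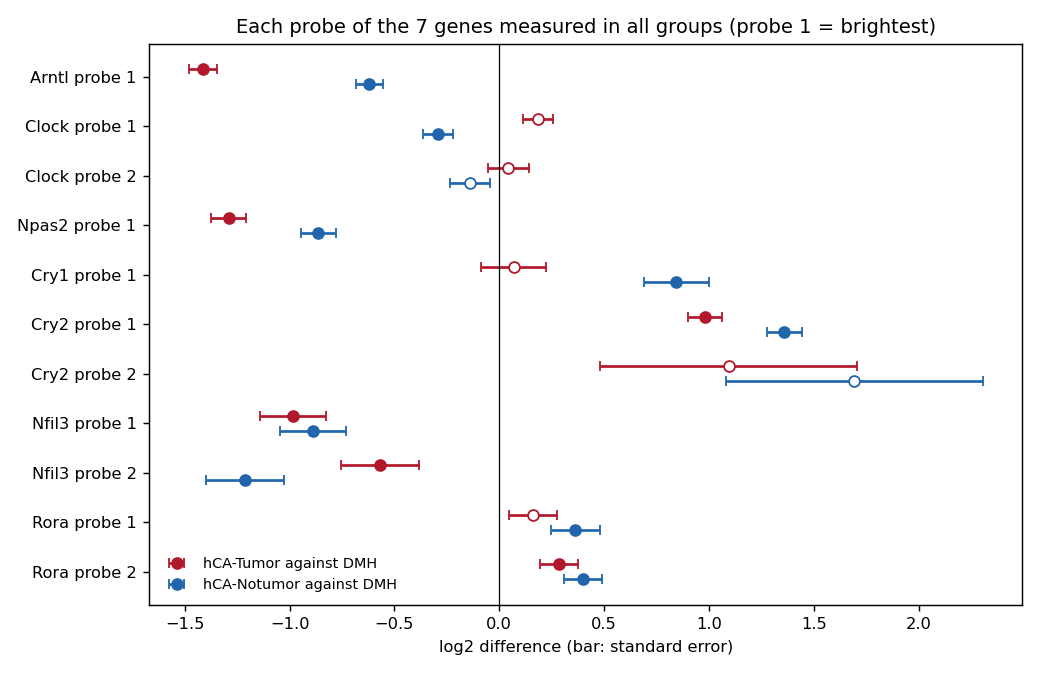
Log2 differences from DMH, with standard errors, of the 11 probes measured in all 3 groups, numbered by brightness within a gene. Filled points passed at adjusted p under 0.05. Both probes of Nfil3 lie below 0 and both of Cry2 and Rora above 0, and the third Clock probe is left out because it was above background in 1 group only.

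Genes of the wider clock gave the setting in which these members moved. Of 22 other clock genes listed, 20 could be tested, Rorb and Fbxl21 not being well above background on all arrays of any group. By the brightest probe of each gene, 8 were higher and 2 lower than in DMH with tumors, and 9 were higher and 2 lower without tumors. The share of all features was 21.0% higher and 15.9% lower with tumors, and 18.4% higher and 17.3% lower without tumors. Timeless counted as lower without tumors (-0.25, adjusted p = 0.0275), while its second probe was higher (0.94, adjusted p = 0.000144). The Period repressors Per1, Per2 and Per3 and the D-box activators Dbp, Tef and Hlf were higher than in DMH in both high calcium groups, Per2 by 1.89 log2 units with tumors and 2.22 without tumors. A second Per2 probe differed by 0.46 with tumors and 0.65 without tumors and did not pass (adjusted p = 0.512 and 0.318). With the slide as a block Hlf without tumors no longer passed (0.85, adjusted p = 0.112). Between the high calcium groups 7 of the 20 were higher and 5 lower with tumors, beside 27.0% of all features higher and 20.6% lower. With the slide as a block, 1 of the 20 was higher and 4 lower with than without tumors, where 6324 of 21094 features passed, 52.0% of them higher. By their brightest probes Per1, Per2, Per3, Dbp, Tef and Hlf moved opposite to Arntl, Npas2 and Nfil3 against the same DMH arrays.

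Repressors that act through the ROR element split. Nr1d2 read 1.48, 1.47 and 1.39 with tumors, 1.04, 1.15 and 1.15 without tumors and 0.43, 0.52 and 0.41 in DMH. It was 1.99-fold higher with tumors than in DMH (0.99 ± 0.05, adjusted p = 6.1e-05) and 1.58-fold higher without tumors than in DMH (0.66 ± 0.05, adjusted p = 0.000154), and the arrays followed the reverse of the order in Arntl. The Nr1d2 difference between the high calcium groups, 0.33 (adjusted p = 0.0023), did not pass with the slide as a block (0.32, adjusted p = 0.055). The probes of Nr1d1, its paralog, disagreed. The brightest did not pass against DMH (0.27 with tumors, adjusted p = 0.125, and -0.18 without tumors, adjusted p = 0.288), while the third passed without tumors (0.37, adjusted p = 0.0362) and not with tumors (-0.26, adjusted p = 0.108). Between the high calcium groups they ran opposite ways, at 0.45 ± 0.12 in the brightest (adjusted p = 0.019) and -0.64 in the third (adjusted p = 0.00269), and the second differed by -0.05. The call of the brightest ended with the slide as a block (0.62, adjusted p = 0.108) and without replicate 1 with tumors (adjusted p = 0.0633).

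Some other clock genes differed between the high calcium groups. Ciart, which encodes a repressor of the activating complex, read -1.37, -1.51 and -1.51 with tumors, -5.62, -4.90 and -4.82 without tumors and -6.99, -3.67 and -4.63 in DMH. It was well above background on all 3 arrays with tumors, on 1 without tumors and on 2 of DMH, so that part of its values in the other groups lie at background. It passed the filter only through the group with tumors, so a higher signal there was favoured in advance. Against DMH it differed by 3.63 with tumors, by 2.69 without DMH replicate 1 and by 4.34 without DMH replicate 2. Ciart is among the 8 other clock genes counted as higher with tumors than in DMH, and among those counted as higher with than without tumors. The difference of Ciart from tissue without tumors did not pass with the slide as a block (3.65 without the block, 0.84 with it, adjusted p = 0.00576 and 0.318). Usp2, which encodes a ubiquitin protease under clock control, was 3.58-fold higher without tumors than in DMH (1.84 ± 0.18, adjusted p = 0.000274) and differed from DMH by 0.45 with tumors (adjusted p = 0.0829), with a difference of -1.39 ± 0.18 between tissue with and without tumors (adjusted p = 0.000666). With tumors Usp2 passed against DMH by its second probe (0.59, adjusted p = 0.00254) and with the slide as a block (0.34, adjusted p = 0.0259). Btrc, a ligase subunit that takes part in the breakdown of PER proteins, was 1.45-fold lower with tumors than in DMH (-0.54 ± 0.06, adjusted p = 0.000672) and differed by -0.65 from tissue without tumors (adjusted p = 0.000193). Bhlhe40, a repressor at E-boxes, did not pass against DMH in either high calcium group (0.16 with tumors and 0.07 without tumors, adjusted p = 0.123 and 0.501).

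**Figure D4:**
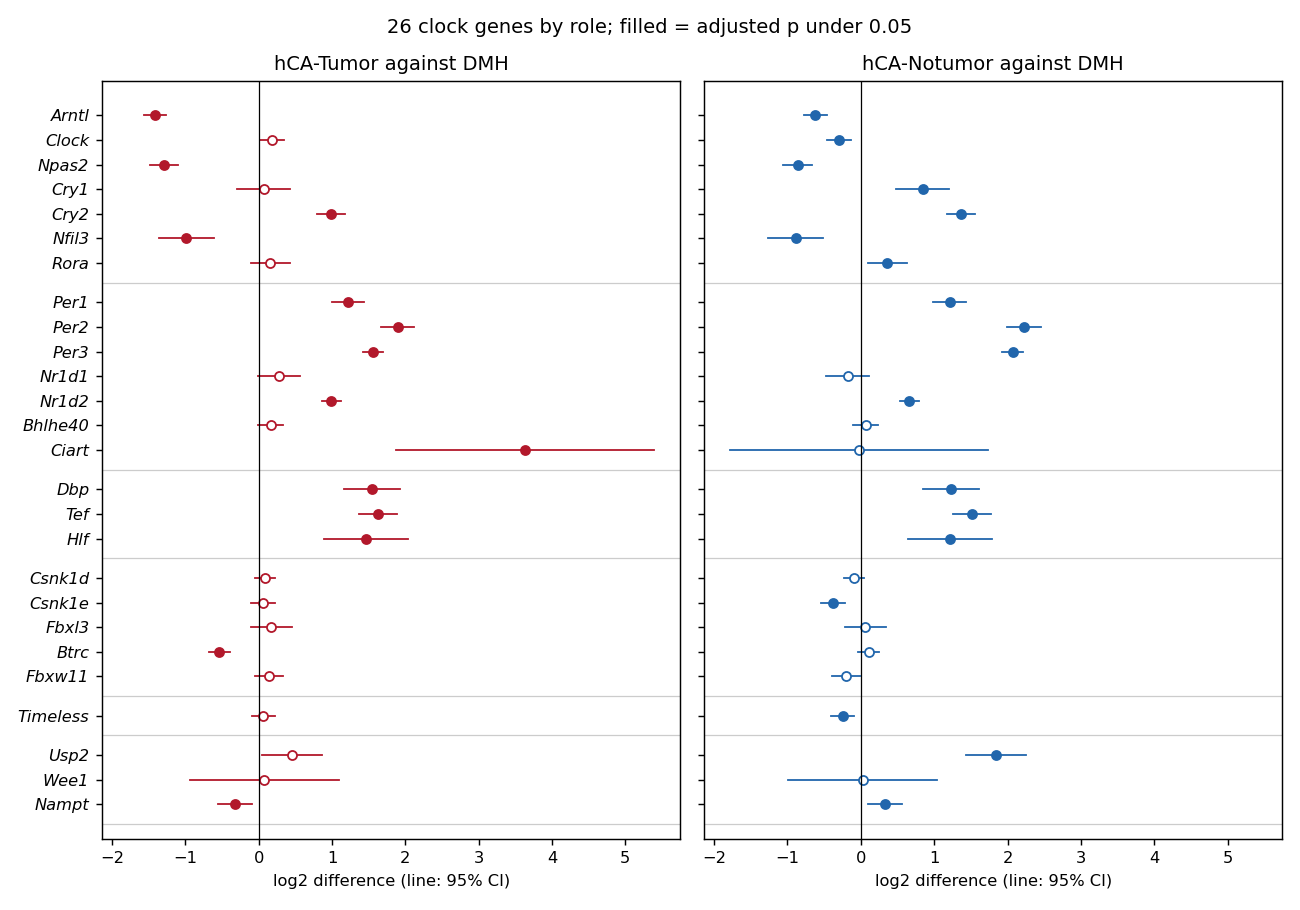
Log2 differences from DMH with 95% confidence intervals for 26 clock genes, tissue with tumors on the left and without tumors on the right, grouped from top to bottom as the 7 members, repressors, D-box activators, genes of clock protein turnover, Timeless and clock-controlled genes. Filled points passed at adjusted p under 0.05, and Bhlhe41, not above background on any DMH array, is left out. Arntl, Npas2 and Nfil3 lie left of 0 in both panels, where Per1 to Per3, Dbp, Tef and Hlf lie right of 0.

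Over the 9 arrays, the named features whose centred log2 values ran closest to those of Arntl were Plau, Cdx2, Itga2, Hmmr and Npas2, out of 14144 named features with a value on every array. The root mean square of the differences ran from 0.10 for Plau to 0.16 for Npas2. The closest with the sign turned were Htr3b, Cav1, Wfikkn1, Gnrh1 and Tmem200a, at 0.10 to 0.13. The nearest to Clock was Exoc2 (0.03), to Npas2 Hmmr (0.14), to Cry1 Krtap13 (0.07), to Cry2 Prdx6 (0.07), to Nfil3 Csf3r (0.11) and to Rora Rab12 (0.06). These are descriptions over arrays that share groups and slides.

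Markers of other tissues moved between the same groups. The summed signal of 10 smooth muscle markers was 614 to 801 with tumors, 436 to 542 without tumors and 235 to 402 in DMH, and all 10 were higher than DMH with tumors and 7 without tumors. That of 9 adipocyte markers, of 10 listed, was 17.4 to 26.3 with tumors, 14.0 to 20.7 without tumors and 53.5 to 59.4 in DMH, with 8 lower in each group than in DMH. Markers of enteric neurons and glia (8 of 10 tested) summed to 8.17 to 9.75 with tumors, 4.91 to 7.41 without tumors and 4.08 to 4.92 in DMH. The value 8.17 is that of replicate 3 with tumors and lacks Vip, which had no value on that array. Myeloid markers (7 of 8) summed to 21.8 to 24.0 with tumors, 24.3 to 25.9 without tumors and 29.5 to 29.9 in DMH. T cell markers (8 of 8) summed to 3.78 to 4.14 with tumors, 4.45 to 5.01 without tumors and 3.72 to 4.10 in DMH. Of the markers in these sums, only S100a8, a myeloid one, had a group in which no array measured it above background, the group without tumors. By summed signal, in which the brightest markers weigh most, myeloid markers ranked the groups in the same order as Arntl and Npas2, with no overlap. Singly, 2 of the 7 were higher with than without tumors, 2 lower and 3 not past the threshold, beside 47.6% of all features past it. Sums of smooth muscle markers had the reverse order. Neuronal sums did too, with an overlap between tissue without tumors and DMH. The part of any of these markers in the members' results was not tested. In whole tissue, fewer cells of a type and less RNA per cell cannot be told apart.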

How the data were processed

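Labelled RNA of 9 samples was hybridised to 1-colour Agilent arrays, and per the file headers the deposited intensity values are background-subtracted processed signals from Feature Extraction 10.5.1.1, beside median spot and background intensities. The authors' whole-series table holds log2 values of 23726 probes (column medians 2.36 to 2.80). Set against the scanner files, its columns were the log2 processed signal less a constant near that array's median, so scale and centring were settled. With 1 probe per gene they gave 18459 features, the same number as probes well above background on all 9 arrays. Whether that was the authors' rule is not known here.

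Control and outlier spots were left out. Probes were named through RefSeq accessions, which named 25097 of 41174 probes. A probe was kept where some group had it well above background on each of its 3 arrays, and the brightest stood for a gene. limma 3.58.1 (R 4.3.3) was fitted on all 9 arrays, and the procedure was tested on simulated data. A bound ("at least") sets the brighter mean against the higher of the dim probe's own signal and the lowest signal well above background on each dim array. Paralog shifts were tested with scipy 1.17.1. The members, the lists of other genes and the markers were chosen with earlier results of these data known. All members are named with every array's value, other clock genes are named from 1 list, and the nearest features by the smallest root mean square. A clock gene is not reported here and is left out of the lists. Arrays were not treated as paired by replicate number. Correlations of same-numbered arrays' deviations ran from -0.57 to 0.22, but these deviations also carry the slides and cannot decide whether a pairing exists.

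Alternatives were normexp background correction (offset 50, on the median spot signal), the whole-series table, quantile normalization, no filter or one asking for 9 arrays, averaged probes of a gene, single probes, array weights, a trended robust fit, slide and replicate blocks, within-slide arrays, only the arrays compared, and each array left out in turn. For the other clock genes, the slide settings and left-out arrays were added after seeing the data.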

Additional observations from a re-analysis of the deposited data

Results flagged for a closer look

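The effect against DMH differed between the high calcium groups in 5 of the 7 members, by the direct test of tissue with against tissue without tumors, where 47.6% of all features passed. The log2 difference of tissue with tumors from tissue without was -0.79 in Arntl, -0.43 in Npas2, -0.78 in Cry1 and -0.38 in Cry2, and 0.48 in Clock. No slide held both groups. With the slide as a block only Arntl and Clock remained past the threshold, at -0.71 and 0.33, where 6324 of 21094 features passed. The Clock call rests on its brightest probe, since the second had the same sign but did not pass (0.18, adjusted p = 0.159). The mean of its probes, 0.05, includes the third probe, which passed the filter only through tissue without tumors. That mean therefore cannot decide the call.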

How the results depend on the processing

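In every alternative run, Arntl, Npas2 and Cry2 kept their direction and their call against DMH, and Nfil3 did except without tumors within slide 1. Without tumors against DMH the calls of Clock, Cry1 and Rora ended with the slide as a block. With against without tumors the mean of probes, which includes dim probes, ended the calls of Clock and Cry2. Members past the threshold in that comparison numbered 3 in the whole-series table, where 4783 of 18459 features passed. In the block fit of slides they numbered 2, where 6324 of 21094 features passed. The mean of probes turned Clock round, to 0.34 without tumors and 0.36 for both groups against DMH. Cry1 with tumors against DMH was -0.0533 after quantile normalization, -0.0585 in the whole-series table and -0.051 to 0.212 with single arrays left out. Nfil3 with against without tumors was 0.27 with the mean of probes, 0.00754 with array weights, 0.000995 with the slide as a block and -0.22 to 0.10 with single arrays left out. The cause was not tested.

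All features past the threshold (with tumors, without tumors and both against DMH, then with against without tumors) numbered 7800, 7533, 6668 and 10034, against 4156, 3860, 3171 and 6295 under normexp and 2403, 3339, 2144 and 4783 in the whole-series table. Without tumors against DMH there were 13210 with array weights and 3702 within slide, for both groups 10316 with array weights and 4322 to 7475 with single arrays left out (fewest without DMH replicate 3), and with against without tumors 6324 with the slide as a block. The whole-series table, centred on medians, moved the median difference of all features to -0.06, -0.14 and -0.11 against DMH, and the share of calls that were higher from 56.9, 51.5 and 56.5% to 39.5, 29.3 and 30.3%.

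Paralog shifts did not pass for Npas2 minus Clock under normexp (-0.56), nor for either pair without 1 DMH array, which leaves too few orderings. The ranges were -1.13 to -0.89 for Npas2 minus Clock and -0.81 to -0.61 for Cry1 minus Cry2. With the replicate block the shifts stood at -1.02 and -0.71 (adjusted p = 0.0741, the smallest possible), and members past the threshold numbered 4, 6, 4 and 5. Precision is limited by how few arrays there are.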
